A study of Homo sapiens with 6 samples.

Results

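The genes described are the TGF-beta and BMP superfamily with its ID targets as the NanoString PanCancer Progression Panel measures them in HCT116 cells: 30 of the 770 genes in the table. A gene was taken when its symbol began with TGFB, SMAD, BMP, ACVR, LTBP, INHB or GDF, or was FST, ENG, ID1, ID2, ID3 or ID4. The rule reads symbols and no measured value. The members comprised 2 TGF-beta ligands, 6 BMP or GDF ligands, 2 activin or inhibin subunits, 3 extracellular regulators, 7 receptors, 6 SMAD genes, 3 ID genes and TGFBI. ENG and ID3 were not analysed here.

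TGF-beta, activins and BMPs are secreted dimers that bind pairs of type I and type II serine/threonine kinase receptors. TGF-beta and activin receptors phosphorylate SMAD2 and SMAD3, BMP receptors phosphorylate SMAD1, SMAD5 and SMAD9, and both branches share SMAD4 for transcription in the nucleus. ID proteins lack a DNA-binding region and hold back basic helix-loop-helix factors, and their genes are classic BMP targets. In the intestine BMP signals favour differentiation and TGF-beta restrains growth of the epithelium.

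HCT116 is a human colorectal carcinoma line with microsatellite instability, and it is known to carry inactivating mutations of TGFBR2, so its RNA level is no measure of receptor function. Untreated HCT116 cells with intact CDKN1A (WT, 3 biological replicates) were compared with untreated HCT116 p21-/- cells (3 biological replicates), a derivative in which CDKN1A, the gene of the cyclin-dependent kinase inhibitor p21, is disrupted. The p21-/- cells came from another laboratory, and other differences between the lines cannot be told apart from the loss of p21. The labels give RPMI medium for both lines, whereas the study's methods give DMEM for the p21-/- cells, and medium and genotype then cannot be told apart either.

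Values are normalized counts, the number of fluorescent barcodes counted for a gene after scaling between samples. Each sample had a floor, equal to the mean plus 2 SD of its 8 negative control entries, below which the table holds no value. It lay at 29.8 to 34.9 normalized counts in the WT line and at 25.7 to 33.8 in the p21-/- line. The counts above the floor, divided by the scaling step of each sample, summed to 867421 to 1187905 barcodes per sample for WT and 1125125 to 1335466 for p21-/- cells. WT replicates were more spread out than p21-/- replicates, with a median SD over genes of 0.16 against 0.063 log2 units. CDKN1A itself had 4133, 5659 and 4312 normalized counts in WT replicates 1 to 3 and 459.57, 409 and 388 in p21-/- replicates, 8.90% of the WT mean. Where its probe lies relative to the disrupted part is not given in the sources used here, so the remaining signal has no reading.

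Between the lines, RNA for ID1, ID2 and GDF15 fell and RNA for BMP4 rose, whereas SMAD1, SMAD4 and SMAD5 did not pass the test. ID2 stood at 4.58% and GDF15 at 5.03% of their WT means in p21-/- cells, ID1 at 40.9%, and BMP4 at 260.0%. In total 5 of 30 members were higher and 9 were lower in p21-/- cells at an adjusted p below 0.05 (limma with Benjamini-Hochberg adjustment over 770 genes, two-sided). Of all 770 genes, 21.8% were higher and 26.0% were lower by the same criterion, so these counts are near the background. The lines did not overlap for 16 of the members, and this was true of 52.2% of all genes. The median absolute change was 0.33 log2 units over the members and 0.27 over all genes, of which 5 and 167 were held at the floor throughout. The members BMPR1B, GDF5, GDF6, ID4 and INHBA, were at the floor in all 6 samples and have no measured change. These are bulk samples, in which fewer cells with a given RNA and less of that RNA per cell cannot be told apart.

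**Figure D1:**
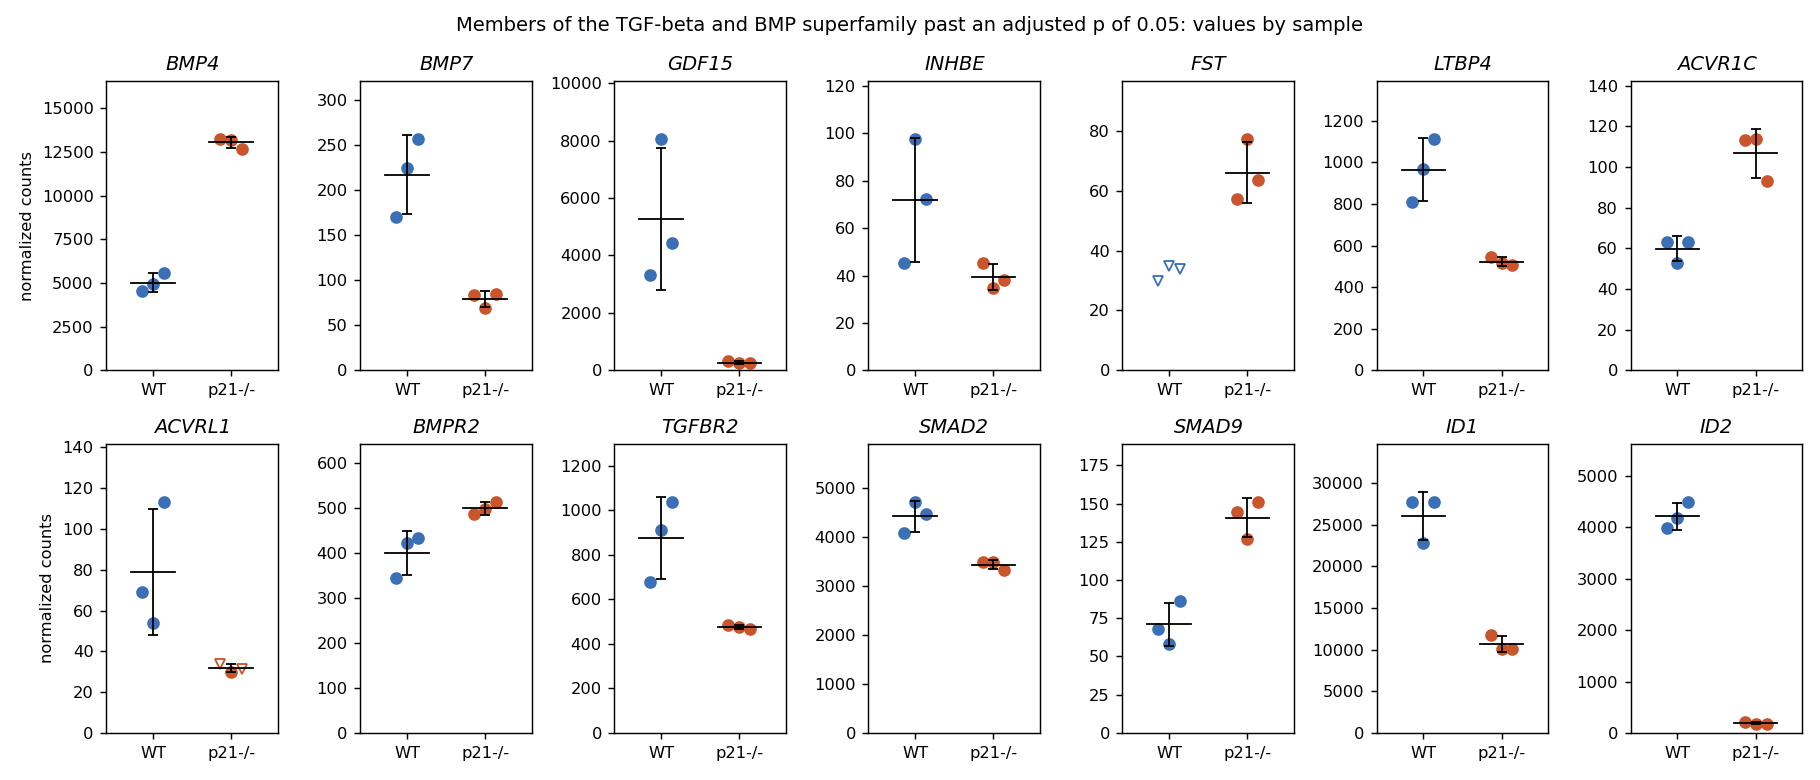
Normalized counts (vertical axes, linear from 0, a different range in each panel) of the 14 members past an adjusted p of 0.05, by line. Points are samples, open triangles are floor values, and bars are the mean ± SD of 3 samples (not drawn where a line is entirely at the floor). INHBE is the only one of the 14 whose lines overlap, and WT replicate 2 of GDF15, at 8058, lies well above the other WT samples.

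The sequences just upstream of the 4 genes with the largest changes in RNA among members with a RefSeq window, 2 ID genes and 2 ligands, are shown because SMAD complexes and helix-loop-helix factors act through short motifs in such regions. BMP7, ACVRL1, GDF6 and INHBE are not among the members with a window. The sequences are the 250 bases before the RefSeq start in GRCh38.p14, on the strand of the gene. ID1 lies on chromosome 20 from 31605289 to 31606510 with its window at chr20:31605039-31605288, plus strand. ID2 lies on chromosome 2 from 8682056 to 8684461 with its window at chr2:8681806-8682055, plus strand. GDF15 lies on chromosome 19 from 18386158 to 18389176 with its window at chr19:18385908-18386157, plus strand. BMP4 lies on chromosome 14 from 53949736 to 53956891, minus strand, and of its 3 starts the one nearest the first transcribed base of the annotated gene was used, 1841 bases inside it, with its window at chr14:53955051-53955300. Capitals mark 3 motifs, searched on both strands. The SMAD-binding element is written CAGAC on one strand and reads as GTCTG on the other. The GC-rich motif bound by SMADs is written GGCGCC on both strands. The E-box of helix-loop-helix factors was searched only in the form CAGCTG, which reads the same on both strands, and other forms were not marked. No 2 of these motifs overlap in the windows shown.
ID1: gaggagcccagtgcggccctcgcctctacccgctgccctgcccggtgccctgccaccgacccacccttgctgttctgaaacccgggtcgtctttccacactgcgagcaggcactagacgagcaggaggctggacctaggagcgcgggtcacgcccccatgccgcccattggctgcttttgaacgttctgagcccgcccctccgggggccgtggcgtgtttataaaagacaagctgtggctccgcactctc
ID2: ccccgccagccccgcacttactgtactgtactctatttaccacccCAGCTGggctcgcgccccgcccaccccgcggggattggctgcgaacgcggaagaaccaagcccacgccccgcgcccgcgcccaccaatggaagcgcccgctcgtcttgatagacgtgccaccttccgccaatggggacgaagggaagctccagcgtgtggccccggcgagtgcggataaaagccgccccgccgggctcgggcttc
GDF15: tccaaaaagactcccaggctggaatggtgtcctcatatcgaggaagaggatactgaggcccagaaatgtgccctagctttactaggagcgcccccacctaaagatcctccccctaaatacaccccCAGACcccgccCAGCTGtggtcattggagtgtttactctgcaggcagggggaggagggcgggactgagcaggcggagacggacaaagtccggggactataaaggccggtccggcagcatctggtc
BMP4: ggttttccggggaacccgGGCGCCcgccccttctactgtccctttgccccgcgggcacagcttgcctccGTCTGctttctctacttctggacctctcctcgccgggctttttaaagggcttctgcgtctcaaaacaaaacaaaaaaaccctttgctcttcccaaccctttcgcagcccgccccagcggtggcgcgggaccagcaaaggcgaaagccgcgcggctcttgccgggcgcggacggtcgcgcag

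ID1 held none of the 3 motifs in this window, ID2 held 1 CAGCTG, GDF15 held 1 CAGAC and 1 CAGCTG, and BMP4 held 1 SMAD-binding element, on the opposite strand, and 1 GGCGCC. Of 26 members with a RefSeq window, 8 held CAGAC (30.8%), 8 held GGCGCC (30.8%) and 5 held CAGCTG (19.2%). The same motifs occurred in 37.9%, 16.0% and 13.8% of 27305 gene windows of this length. ACVR1, BMP4, BMPR2, GDF15, GDF5, ID4, LTBP4 and TGFB2 carried CAGAC, a group that holds genes that rose, fell and were at the floor. GGCGCC was found for ACVR1, BMP4, BMPER, BMPR2, SMAD2, SMAD3, SMAD4 and TGFBI. CAGCTG was found for BMPR2, GDF15, ID2, ID4 and SMAD5. A match is only a string of letters in this window, and the data contain no measurement of binding.

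Among the ID genes, ID2 fell the most. It had 3977, 4172 and 4499.9 normalized counts across WT replicates and 220.1, 177 and 182 in p21-/- replicates. Every WT sample lay far above every p21-/- sample, and the mean went from 4216 ± 264 to 193 ± 23.3 (SD, n = 3 per line). Its log2 fold change was -4.44 ± 0.11 (SE), with a limma adjusted p of 1.55e-14, which placed it at rank 4 of 770 by size of fall. ID1, a dimerization partner of E proteins and a rapid BMP target, had 27662, 22729 and 27756 normalized counts across WT replicates and 11783, 10099 and 10062 in p21-/- replicates. The lines did not overlap, and the log2 fold change of -1.29 ± 0.10 (limma adjusted p of 2.07e-08) was a smaller fall than that of ID2. The ratio of ID1 to ID2 in a sample therefore differed by 3.16 log2 units between the lines, a value that does not depend on scaling between samples. ID4, the third ID gene, was at the floor throughout.

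The E proteins and other helix-loop-helix genes that ID proteins hold back were listed with genes known to be repressed or induced through them, and 7 of 10 listed genes were measured. Of these, 3 were higher and 2 were lower, where 47.8% of all genes passed in either direction. The median log2 fold change of the list was -0.12, the value that any gene at the floor in all 6 samples takes from the floors alone, and so was that of all 770 genes. Neither median is a measured change, and over the 446 genes that no sample held at the floor it was -0.05. CDKN2A, the cell cycle inhibitor gene repressed by ID1, had 142, 156 and 145 normalized counts in WT and 403, 395 and 377 in p21-/- replicates (log2 fold change 1.40, limma adjusted p of 3.02e-07). TWIST1, a helix-loop-helix factor of mesenchymal cells, went the other way, from 92.5 ± 11.8 to 45.5 ± 3.20 normalized counts (49.2% of the WT mean, limma adjusted p of 1.01e-04).

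Among ligands, BMP4 rose and BMP7 and GDF15 fell. BMP4, a BMP ligand with roles in gut development, had 4524, 4934 and 5589 normalized counts across WT replicates and 13244, 13193 and 12683 in p21-/- replicates. The p21-/- samples were all higher and close to each other, and the log2 fold change was 1.38 ± 0.09 (limma adjusted p of 1.89e-09). BMP7, which can form heterodimers with other BMPs, had 170.3, 225 and 257 normalized counts in WT and 84.15, 69.2 and 84.9 in p21-/- replicates. All p21-/- values lay below the lowest WT value, with a log2 fold change of -1.43 ± 0.19 (limma adjusted p of 6.66e-06). Within a sample the ratio of BMP4 to BMP7 was 2.81 log2 units higher in p21-/- cells, a pair chosen after its values were seen and given without a test.

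GDF15 is a divergent superfamily ligand induced by cellular stress and by p53. Its values were 3312, 8058 and 4427 normalized counts across WT replicates and 315, 244 and 236 in p21-/- replicates. WT replicate 2 was well above the other WT samples, and even the lowest WT value was far above the p21-/- samples. The log2 fold change was -4.22 ± 0.22 (limma adjusted p of 1.60e-10), at rank 6 of 770 by size of fall. Leaving out any sample kept it between -4.50 and -3.86.

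BMP5 was at the floor in the WT samples and had 48.55 and 32.8 normalized counts in p21-/- replicates 1 and 2, with replicate 3 at the floor (limma adjusted p of 0.495). The ligands GDF5 and GDF6 were at the floor in every sample. INHBE, which encodes an activin subunit made mainly in liver and induced by stress of the endoplasmic reticulum, had 45.2, 97.7 and 72.5 normalized counts in WT and 45.3, 34.6 and 38.05 in p21-/- replicates. The lines overlapped, since WT replicate 1 lay level with p21-/- replicate 1, and the values were near the floor. Its log2 fold change of -0.79 ± 0.23 passed the test (limma adjusted p of 0.00862) but not under quantile normalization (adjusted p of 0.0661) or an ordinary linear model (0.156), and the range over its alternatives was 1.58e-05 to 0.156. The other subunit on the panel, INHBA, was at the floor.

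Neither TGF-beta ligand passed the test, although the lines did not overlap for either. TGFB1, the most widely expressed isoform, had 729, 894 and 876 normalized counts in WT and 939.65, 968 and 971 in p21-/- replicates (log2 fold change 0.21, 95% interval -0.01 to 0.43, limma adjusted p of 0.121). TGFB2, an isoform prominent in development, had 110.0, 125 and 123 normalized counts in WT and 87.4, 103 and 77.0 in p21-/- replicates (log2 fold change -0.42, 95% interval -0.79 to -0.06, limma adjusted p of 0.0555). TGFB1 passed under median scaling (0.42, adjusted p of 4.42e-04) and quantile normalization (0.45, adjusted p of 0.00475), and its log2 fold change turned to -0.18 under housekeeping scaling (adjusted p of 0.0879). TGFB2 passed without WT replicate 1 (adjusted p of 0.0290), with a mean of at least 50 (0.0321), under housekeeping scaling (8.67e-04), with a constant prior variance (0.0204) and with the floor at its upper bound (0.0324), and its largest adjusted p was 1 under quantile normalization. The ratio of TGFB1 to TGFB2 was 0.63 log2 units higher in p21-/- cells.

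The extracellular regulators split by gene. FST encodes follistatin, which binds and neutralizes activins and some BMPs. All 3 WT samples held it at the floor, and it stood at 57.2, 77.4 and 63.7 normalized counts in p21-/- replicates, at least 1.59-fold higher (limma adjusted p of 9.57e-05). LTBP4 encodes a matrix protein that stores latent TGF-beta, and it had 809, 971 and 1113 normalized counts in WT and 546, 515 and 505 in p21-/- replicates. The lines were apart, with a log2 fold change of -0.87 ± 0.12 (limma adjusted p of 1.36e-05). BMPER, a secreted BMP-binding protein, was at the floor in WT samples and at 30.95 and 31.85 normalized counts in p21-/- replicates 2 and 3, just above their floors, with replicate 1 at the floor. TGFBI, a matrix protein named for its induction by TGF-beta, was at the floor in WT samples and had 48.55, 33.7 and 43.4 normalized counts in p21-/- replicates (limma adjusted p of 0.112).

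Receptor RNAs changed in both directions. TGFBR2, the type II receptor for TGF-beta, had 678, 913 and 1039.6 normalized counts across WT replicates and 483, 474 and 469 in p21-/- replicates. The p21-/- samples were nearly identical and all lower, with a log2 fold change of -0.86 ± 0.14 (limma adjusted p of 6.12e-05). ACVRL1, the type I receptor ALK1 best known from endothelial cells, had 69.3, 53.9 and 113 normalized counts in WT, and in p21-/- cells only replicate 2 was above the floor, at 30.0. Its log2 fold change of -1.22 (limma adjusted p of 1.93e-04) rests on floor values in the other 2 samples. Of the endothelial markers of the panel, 4 of 5 were at the floor in all 6 samples, and PECAM1 was above it only in p21-/- replicates 1 and 2, at 41.0 and 27.3 normalized counts.

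ACVR1C, the type I receptor ALK7, had 63.3, 52.8 and 63.15 normalized counts in WT and 113, 114 and 92.9 in p21-/- replicates. It was higher in every p21-/- sample, with a log2 fold change of 0.82 ± 0.17 (limma adjusted p of 7.32e-04). BMPR2, the type II receptor for BMPs, had 344, 421 and 434 normalized counts in WT and 487, 497 and 514 in p21-/- replicates. The lines did not overlap, but the change of 0.33 ± 0.13 log2 units was small (limma adjusted p of 0.0416). The call ended without WT replicate 1 (log2 fold change 0.22, adjusted p of 0.0765) and without p21-/- replicate 1, 2 or 3 (adjusted p of 0.0998, 0.147 and 0.159) and under an ordinary linear model (0.0830), and under housekeeping scaling the direction turned (log2 fold change -0.06, adjusted p of 0.635), with a range over its alternatives of 2.67e-04 to 0.635.

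BMPR1A and ACVR1, type I receptors of the BMP branch, overlapped between the lines. BMPR1A had 1587, 1707 and 1723 normalized counts in WT and 1631, 1545.5 and 1544.9 in p21-/- replicates, with a 95% interval of its log2 fold change of -0.27 to 0.10. ACVR1 had 970.4, 1264 and 1134 normalized counts in WT and 1165, 1208 and 1172 in p21-/- replicates, with an interval of -0.14 to 0.31. Neither passed the test (limma adjusted p of 0.495 and 0.521).

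**Figure D2:**
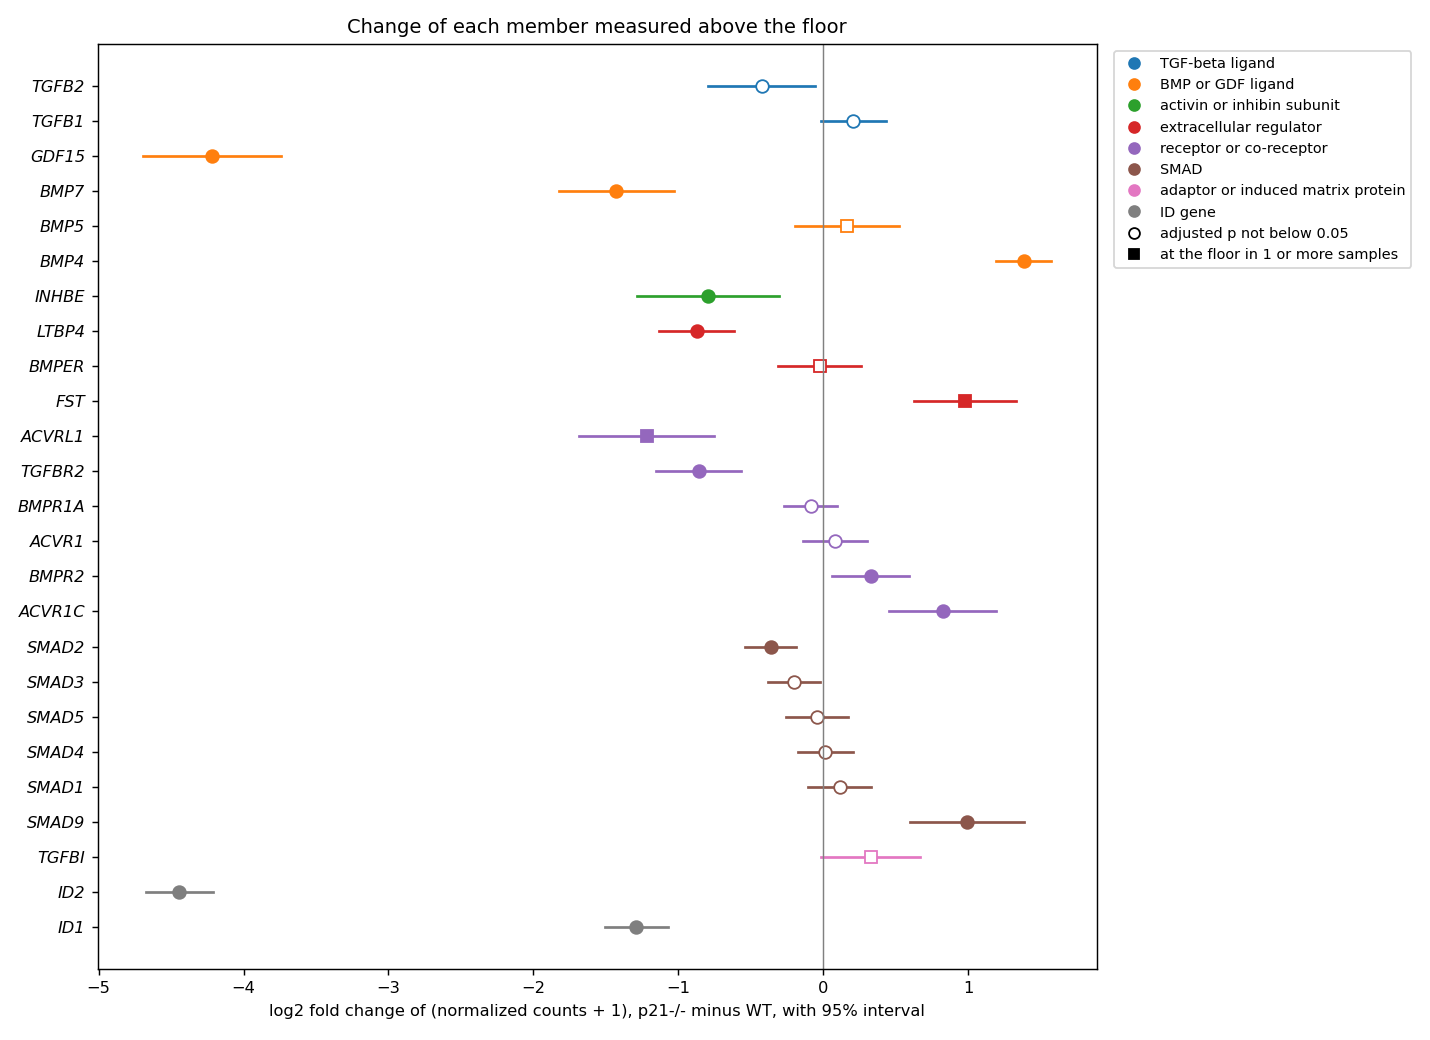
Log2 fold change of normalized counts plus 1, p21-/- minus WT (horizontal axis), with its 95% interval from limma, for the 25 members above the floor in at least 1 sample. Colours give the role, filled symbols an adjusted p below 0.05, and squares a floor value in at least 1 sample. ID2 at -4.44 and GDF15 at -4.22 lie far to the left of all others, and SMAD4, SMAD5 and SMAD1 lie close to 0.

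Of the SMADs, SMAD9 rose, SMAD2 fell and 4 did not pass the test. SMAD9, a receptor-regulated SMAD of the BMP branch, had 67.8, 58.4 and 86.5 normalized counts in WT and 145, 127 and 151 in p21-/- replicates. All p21-/- samples were higher, with a log2 fold change of 0.99 ± 0.18 (limma adjusted p of 2.42e-04). The other BMP-branch SMADs overlapped between the lines. SMAD1 had 1386, 1572 and 1836 normalized counts in WT and 1747, 1737 and 1669.6 in p21-/- replicates (log2 fold change 0.11, limma adjusted p of 0.470). SMAD5 had 2039, 2692 and 2522 normalized counts in WT and 2258, 2322 and 2415 in p21-/- replicates (log2 fold change -0.04, limma adjusted p of 0.736). Set within a sample against SMAD1 and SMAD5, SMAD9 was higher in p21-/- cells by 0.88 and 1.04 log2 units, pairs chosen after their values were seen and given without a test.

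SMAD2, a signal carrier of the TGF-beta and activin branch, had 4088, 4721 and 4459 normalized counts in WT and 3494, 3483 and 3331 in p21-/- replicates. The lines did not overlap, and the log2 fold change was -0.36 ± 0.08 (limma adjusted p of 0.00162), but the call ended under median scaling (-0.15, adjusted p of 0.140) and quantile normalization (-0.12, adjusted p of 0.0626), with a range over its alternatives of 1.19e-06 to 0.140. SMAD3, its partner in the same branch, had 1865, 2018 and 1929.5 normalized counts in WT and 1661, 1673 and 1724 in p21-/- replicates. All p21-/- values were lower, but the log2 fold change of -0.20 ± 0.08 missed the threshold (limma adjusted p of 0.0626). It passed with a mean of at least 50 (adjusted p of 0.0281), under housekeeping scaling (1.30e-05), under an ordinary linear model (0.0168), with the floor at its upper bound (0.0477) and without WT replicate 1 (0.00936), and its largest adjusted p over the alternatives was 0.874. SMAD4, the shared SMAD, had 2367, 2796 and 2489 normalized counts in WT and 2692, 2513 and 2516 in p21-/- replicates. Its values overlapped, with a log2 fold change of 0.02 and a 95% interval of -0.17 to 0.20 (limma adjusted p of 0.887).

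Ratios of related members in the same sample do not depend on scaling between samples, and 5 of 10 listed pairs had both members above the floor in all 6 samples. In p21-/- cells the log2 ratio of ID1 to ID2 was higher by 3.16 and that of TGFB1 to TGFB2 by 0.63. The differences for SMAD2 to SMAD4, SMAD2 to SMAD3 and BMPR1A to BMPR2 were -0.38, -0.16 and -0.41. The lines did not overlap for any of the 5 pairs, and the exact two-sided permutation p was 0.1 for each, the smallest that 3 samples against 3 can give, as it was after adjustment over the 5 pairs. The threshold of 0.05 therefore could not be reached. A ratio shows unequal change of its members and not which of them changed.

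**Figure D3:**
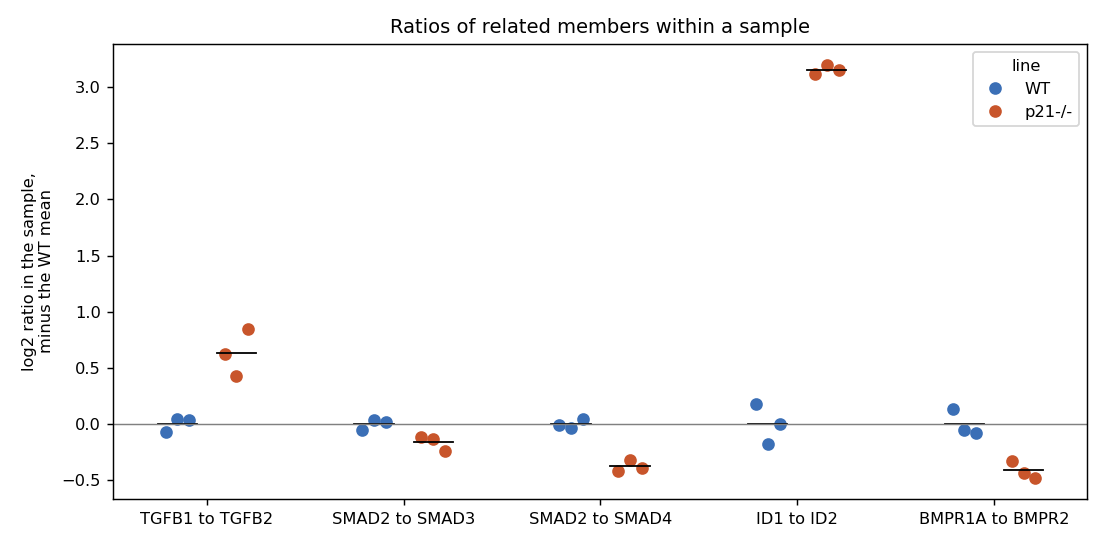
Log2 ratio of 2 related members in each sample minus the mean ratio of the WT samples (vertical axis), for the 5 pairs (horizontal axis). Points are samples and black lines the means of 3. The p21-/- samples lie above all WT samples for TGFB1 to TGFB2 and ID1 to ID2, and below them for the other 3 pairs.

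Further ratios within a sample were taken for pairs picked after the values were seen, and are given without a test. The ratio of BMP4 to ID1 was 2.67 log2 units higher in p21-/- cells, with the ligand higher and the target lower. The ratio of BMPR2 to TGFBR2 was 1.19 log2 units higher. The log2 ratio of ID1 to SMAD4 had a mean of 2.05 in p21-/- and 3.35 in WT samples.

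Directions near 0 depended on how samples were scaled to each other. The median log2 fold change over the 446 genes never held at the floor moved by 0.21 with median scaling, by 0.18 with quantile normalization and by -0.38 with scaling to 30 housekeeping candidates. Among called members 35.7% were higher as deposited, against 55.6%, 50% and 15.4% under these scalings. Among all called genes the shares were 45.7% as deposited and 59.8%, 58.0% and 15.5% under the same scalings. ID2, GDF15, BMP7, ID1, LTBP4 and TGFBR2 were lower and BMP4, SMAD9 and ACVR1C higher under all 4 scalings. INHBE, SMAD2 and TGFB2 were also lower under all 4, but did not pass the test under each of them. BMPR2, ACVR1, SMAD1, SMAD4 and TGFB1 were higher as deposited and lower under housekeeping scaling, and BMPR1A, SMAD3 and SMAD5 were lower as deposited and higher under median scaling.

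**Figure D4:**
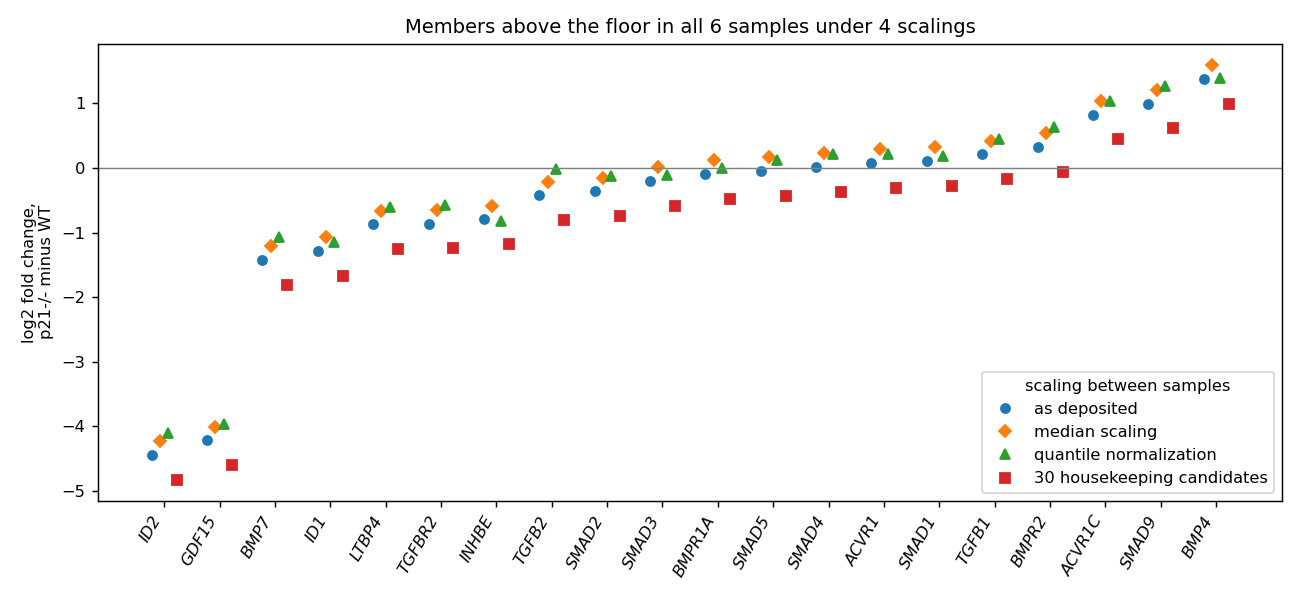
Log2 fold change, p21-/- minus WT (vertical axis), of the 20 members above the floor in all 6 samples (horizontal axis) under 4 scalings between samples. BMP4, SMAD9 and ACVR1C stay above 0 under all 4 scalings. ID2, GDF15, BMP7, ID1, LTBP4, TGFBR2, INHBE, SMAD2 and TGFB2 stay below it, though TGFB2 is at -0.009 under quantile normalization.

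Genes that store or release latent TGF-beta were measured for 13 of 17 listed, of which 4 were higher and 2 were lower, against 21.8% and 26.0% of all genes (median log2 fold change -0.05, with 3 of the 13 held at the floor throughout). THBS1, which encodes thrombospondin-1, an activator of latent TGF-beta, had 228, 228 and 249 normalized counts in WT and 1123, 999 and 1055 in p21-/- replicates (log2 fold change 2.17, limma adjusted p of 1.50e-10). ITGB8 and ITGB1, chains of integrins that bind latent TGF-beta, fell. ITGB8 had 512, 764 and 881 normalized counts in WT, and in p21-/- cells only replicate 3 was above the floor, at 33.6 (limma adjusted p of 3.14e-11). ITGB1 fell from 15899 ± 513 to 7167 ± 162 normalized counts (log2 fold change -1.15, limma adjusted p of 4.28e-09).

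Modulators and cofactors of the pathway were measured for 13 of 24 listed, with 3 higher and 3 lower, where 47.8% of all genes passed in either direction (median log2 fold change -0.11, with 1 held at the floor throughout). That median is the value of NODAL, at the floor in 3 WT and 2 p21-/- samples, and so is not a measured change. SMURF2, a ubiquitin ligase that targets SMADs and receptors, had 13842, 14867 and 14613 normalized counts in WT and 5397, 5234 and 4934 in p21-/- replicates (log2 fold change -1.48, limma adjusted p of 2.21e-10). CREBBP, a coactivator acetyltransferase recruited by SMADs, had 731, 946 and 878 normalized counts in WT and 1686, 1755 and 1724 in p21-/- replicates (log2 fold change 1.02, limma adjusted p of 4.49e-07).

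Known TGF-beta target genes were measured for 17 of 26 listed, and 6 were higher and 4 lower, against 21.8% and 26.0% of all genes (median log2 fold change -0.03, with 2 held at the floor throughout). They did not move one way. The median is the value of LOX, at the floor in 3 WT and 2 p21-/- samples, and so is not a measured change. COL1A1, a fibrillar collagen gene, fell from 215 ± 24.2 to 63.8 ± 3.18 normalized counts (log2 fold change -1.73, limma adjusted p of 2.27e-07), and CDKN1A itself is on this list.

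Of the targets on this list that rose, VIM, SPARC, SNAI2, TNC and ZEB1 changed by at least 1 log2 unit. VIM, which encodes the intermediate filament vimentin, had 172, 111 and 161 normalized counts in WT and 29354, 30440 and 30183 in p21-/- replicates (log2 fold change 7.68, limma adjusted p of 1.56e-16). SPARC, a matrix glycoprotein gene, was at the floor in WT replicates 1 and 2, at 49.1 normalized counts in WT replicate 3, and at 4244, 4981 and 4386 in p21-/- replicates (limma adjusted p of 1.19e-14). SNAI2, a repressor of epithelial genes, and TNC, the gene of tenascin-C, were at the floor in WT samples and were at least 11.5-fold and at least 3.51-fold higher in p21-/- cells. ZEB1, another such repressor, went from 79.3 ± 18.1 to 176 ± 10.5 normalized counts (log2 fold change 1.16, limma adjusted p of 5.64e-05).

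Markers of the cell types that the samples could hold were read beside these results. Of 7 measured epithelial markers all were above the floor in all 6 samples, 5 were lower and 1, EPCAM, was higher in p21-/- cells, and their summed level was 23531 to 28087 normalized counts in WT and 14814 to 15613 in p21-/- samples. The EPCAM call (log2 fold change 0.22, limma adjusted p of 0.0444) ended without WT replicate 2 (0.0705), without p21-/- replicate 1, 2 or 3 (0.223, 0.0892 and 0.113), under an ordinary linear model (0.0792) and with a constant prior variance (0.135), and its direction turned under housekeeping scaling (log2 fold change -0.17, adjusted p of 0.0521). CDH1, the E-cadherin gene, stood at 10.5% of its WT mean. Of 8 fibroblast markers, LUM and FAP were at the floor in all 6 samples, 1 was higher (PDGFRB, 43.7 to 55.0 normalized counts in p21-/- samples, a call that ended under housekeeping scaling and with the floor at its upper bound) and 1 lower (COL1A1), with a summed level, made largely of floor values, of 418 to 477 in WT and 284 to 333 in p21-/- samples. None of the 5 endothelial markers passed the test, and their WT values were floor values throughout. Of 4 leukocyte markers, PTPRC and ITGAM were at the floor throughout and PRF1 was lower, with sums of 195 to 305 and 141 to 162 that again include floor values. The part of the fall in epithelial markers in the changes of the superfamily was not tested.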

How the data were processed

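RNA of 3 HCT116 WT and 3 p21-/- samples was counted on the NanoString PanCancer Progression Panel and grouped by the deposited labels. The deposited gene values are a signal: counts that the authors normalized in nSolver, with 6 positive and 8 negative controls listed beside 770 genes; the study's own gene list came from NanoStringDiff on raw counts, which were not used here. Low values are held at the floor, which limits precision. Differences were tested with limma 3.58.1 in R 4.3.3 (lmFit and eBayes with a trend) on log2(value + 1), without covariates or a filter, with Benjamini-Hochberg adjustment over 770 genes, two-sided, at 0.05, and tested on simulated data. Fold changes on this scale understate those of low genes. A floor value enters as it stands, and a bound sets p21-/- values against the highest count that WT samples could hold at the floor. Ratios used exact permutation tests. Every member is named, and of the other lists those past the threshold with a log2 change of at least 1, except 1 that is not reported here. The members and lists were chosen with earlier results of these data known. Promoters are from RefSeq (GRCh38.p14), with 26 of 30 members matched. P-values measure the spread between replicates of 1 line each.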

Additional observations from a re-analysis of the deposited data

How the results depend on the processing

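Across 17 alternatives, 11 of the 14 called members kept their call wherever they were tested. The exceptions were BMPR2, INHBE and SMAD2. As deposited 5 members were higher and 9 lower; median scaling gave 10 higher, housekeeping scaling gave 22 lower, and setting floor values at their upper bound gave 16 lower, with 5 of the 22 and 5 of the 16 at the floor in all samples. Of all 770 genes, 168 higher and 200 lower as deposited became 251 higher, 529 lower and 392 lower under the same settings. For the 50 other pathway genes, 16 higher and 11 lower became 32 lower under housekeeping scaling and 21 lower with the floor bound, of which 8 were at the floor throughout in both. Housekeeping scaling turned ACVR1 to -0.30, BMPR2 to -0.057, SMAD1 to -0.27 and SMAD4 to -0.37, each but BMPR2 past the threshold, and TGFB1 to -0.18, not past it, whereas median scaling called ACVR1 (0.30), SMAD1 (0.33) and SMAD4 (0.23) higher. Leaving out each sample gave 4 to 5 members higher and 9 to 11 lower, and 16 to 17 and 10 to 12 other pathway genes. Among uncalled members, SMAD3 and TGFB2 passed without WT replicate 1, and TGFBI without p21-/- replicate 2. BMP5, BMPER, BMPR1B, FST, GDF5, GDF6, ID4, INHBA and TGFBI fell below a mean of 50 and were not tested with that filter. Same-numbered samples correlated at 0.08, -0.05 and 0.05 after removal of group means, which cannot show whether they were handled together. With the replicate block 5 members were higher and 9 lower, as without it. Of the called genes on the other lists, EPCAM alone no longer passed with that block (limma adjusted p of 0.0834). Of 16 members without a call, 15 gained one under at least 1 alternative. These include BMPR1B, GDF5, GDF6, ID4 and INHBA, which were at the floor in all samples and have no measured change. The cause of each change was not tested.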
